A study of Arabidopsis thaliana with 15 samples.

Results

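Among the genes expressed in Arabidopsis thaliana leaves and shoots, 72 fell a little further at each step of a density series of a harmless leaf bacterium. They were chosen by their counts per 1000000 reads (CPM, a gene's reads scaled by the library total). A gene was taken when its mean CPM over all 15 libraries was 5 or more, when its group mean fell by a log2 ratio of at least 0.1 at each of 3 consecutive steps, when the log2 ratio of the highest to the lowest density was -0.8 or less, and when every library of the highest density lay below every library of the lowest. These 72 were 0.50% of the 14388 genes with a mean CPM of 5 or more and were drawn from a table of 32833 genes. Since the inoculated libraries chose the genes, their falls between densities are given as a description with no test.

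The plants were of the wild-type accession Col-0, raised in closed boxes and 6 weeks old when sprayed. The groups W5, W6, W7 and W8 received Williamsia sp. Leaf354, a non-pathogenic bacterium that lives on leaves, at 100000, 1000000, 10000000 and 100000000 CFU/ml in phosphate-buffered saline, and the mock group received the saline alone. Aboveground parts were taken 96 h later, and each of the 3 libraries of a group pooled 2 plants from different boxes, so a library is not a single plant. The hour of day of each harvest is not given in the labels. The bulk tissue holds all aboveground cell types, so fewer cells of a type and less RNA per cell cannot be told apart.

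Library totals ran from 17811560 to 21870246 counts, and the fewest counts of any of the 72 genes in a library was 39. Leaf markers were abundant: RBCS1A, a small subunit of the carbon-fixing enzyme Rubisco, stood at 9165 to 13675 CPM, while the root hair genes LRX1, EXPA7 and RHD6 were at 0 in all 15 libraries. Of 8 root markers, 7 reached at most 1.08 CPM, while PYK10, a glucosidase abundant in roots, was at 119 to 204 CPM in every library. The summed CPM of 4 leaf markers, 1 of them a gene of the 72, was itself lower in W8 (17683 to 19313) than in mock (23149 to 27372), and its part in the falls was not tested. Mock replicate 3 stood apart from its group: it lay above both other mock libraries in 53.5% of the 14388 genes and below both in 25.2%. The counts against mock over the 72 genes are therefore also given without it.

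Plants tune growth, photosynthesis and nutrient uptake to light, time of day and threats from microbes. In leaves, transcription factors of the circadian clock set the daily timing of many genes, B-box zinc finger proteins relay light signals, and GOLDEN2-like and GATA factors switch on the genes that make chloroplasts green. Phosphate supply is read by SPX proteins, which hold back the master regulator of phosphate starvation genes. Transcripts of growth and photosynthesis commonly go down in leaves that mount an immune response.

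Over the 72 genes the median log2 ratio of W8 to W5 was -1.04, with a range of -3.17 to -0.80, where the median of all genes with a mean CPM of 5 or more was 0.03. The decline steepened with density: the median step was -0.23 from W5 to W6, -0.30 from W6 to W7 and -0.53 from W7 to W8. The last step was the largest in 54 genes, the middle step in 17 and the first in 1. Libraries of neighbouring groups did not overlap in 34 genes at the first step (5.49% of all genes fell so), in 45 at the second (13.5%) and in 58 at the third (14.3%), and 23 genes had no overlap at any step (0.438%). The rule used these contrasts, so nothing is read from those counts. The median coefficient of variation over the 72 genes was 12.3% in mock, 7.47% in W5, 7.86% in W6, 9.72% in W7 and 11.5% in W8. The rule required W8 to stand clear of W5, so a spread small beside the fall is partly set by the choice.

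**Figure D1:**
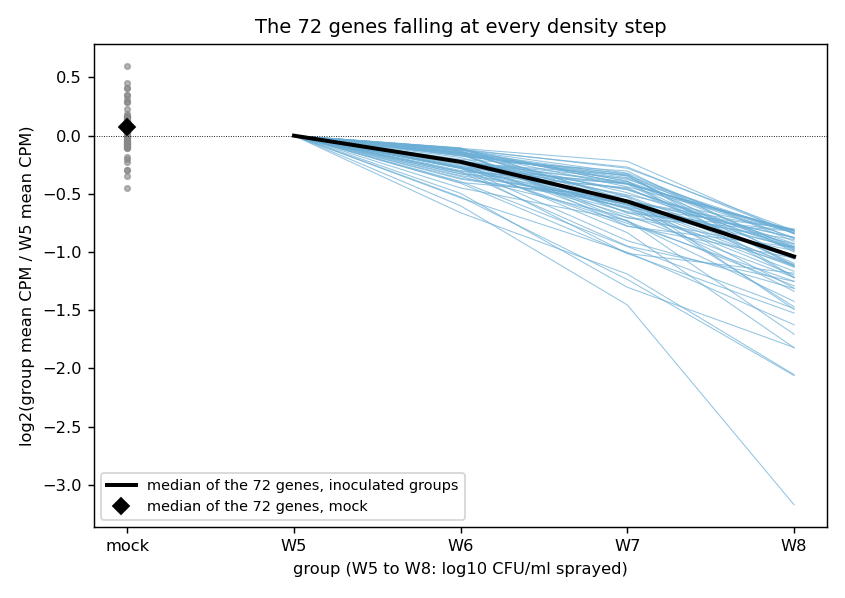
Group mean CPM of each of the 72 genes relative to its W5 mean, on a log2 scale; thin lines join the 4 inoculated groups of a gene, grey points are its mock mean, and the black line and diamond are medians over the genes. The inoculated medians fall to -1.04 at W8, while the mock median lies at 0.07, close to W5.

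A decline at every step was the most frequent form of a fall of this size. In all, 145 genes met the limits on the whole fall, on the mean CPM and on the separation of W8 from W5, and 72 of them (49.7%) also met every step. Of the remaining 73, 55 missed only the step from W5 to W6, 13 only the step from W6 to W7, 4 only the last step, and 1 at least 2 steps. Mirrored limits on rises were met by 780 genes, of which 438 (56.2%) rose at every step. The genes just inside the limit of -0.8 were AT5G20190 (-0.80), AT3G09540 (-0.81) and AT1G62050 (-0.81). Just outside it lay MYC4, a transcription factor of jasmonate signalling, at -0.798, BLH6 at -0.79 and AT1G20823 at -0.78.

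The group closest to light signalling, the clock and leaf greening held 10 genes, with log2 ratios of W8 to W5 from -2.06 to -0.81. This grouping by role, like the others that follow, was made after the values were seen. BBX29 (AT5G54470), whose product carries a B-box zinc finger, had 11.8, 8.27 and 8.87 CPM in the mock libraries, 8.95, 8.30 and 9.32 in W5, 6.14, 5.77 and 6.54 in W6, 3.82, 3.23 and 4.23 in W7, and 1.97, 1.87 and 2.53 in W8. Mock and W5 overlapped, and from W5 on no library of a group reached the group before it. The steps of BBX29 were -0.53, -0.71 and -0.83, and its fall against mock at W8 was -2.25 ± 0.17 (log2 fold change ± SE, n = 3 per group).

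CCA1 (AT2G46830), a MYB-type factor at the core of the morning clock, had 75.9, 69.3 and 64.6 CPM in mock, 59.3, 59.7 and 67.1 in W5, 50.4, 62.3 and 56.1 in W6, 53.0, 43.4 and 45.7 in W7, and 26.1, 25.1 and 28.6 in W8. Mock, W5, W6 and W7 each overlapped the group next to it, and W8 stood clear below all of them. PRR9 (AT2G46790), a pseudo-response regulator that represses CCA1 later in the day, was at 42.9 ± 0.718 CPM in W5, 38.2 ± 3.37 in W6, 28.4 ± 1.19 in W7 and 19.6 ± 0.181 in W8 (mean ± SD, n = 3), against 47.1 ± 6.81 in mock. CCA1 and PRR9 lie near each other on chromosome 2, with 3 genes between them. Both cycling DOF factors of the set, which delay flowering through the day-length pathway, fell alike: CDF3 (AT3G47500) went from 98.4 ± 2.94 CPM in W5 to 39.7 ± 1.48 in W8 and CDF1 (AT5G62430) from 24.1 ± 0.570 to 10.8 ± 1.47. CDF3 had mock values of 114, 105 and 99.1 CPM, and its libraries did not overlap at any step.

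Genes known for promoting greening included the gene of highest level. GLK2 (AT5G44190), an activator of nuclear photosynthesis genes and also 1 of the leaf markers, had 316, 303 and 285 CPM in mock, 315, 282 and 287 in W5, 249, 276 and 287 in W6, 238, 239 and 231 in W7, and 162, 147 and 163 in W8. Mock, W5 and W6 overlapped, W7 lay below them and W8 below W7. Its mean over the 15 libraries was 252 CPM, or 145 CPM per kilobase of exon, the highest level per kilobase of the 72 genes. GNC (AT5G56860), a GATA factor that raises chlorophyll content, fell from 31.2 ± 0.514 CPM in W5 to 25.8 ± 1.92 in W6, 23.5 ± 0.880 in W7 and 17.8 ± 0.670 in W8. TZP (AT5G43630), a zinc knuckle protein of light-dependent growth, kept most of its level up to W7 (52.6, 46.6 and 41.4 CPM at W5, W6 and W7) and reached 24.1 at W8. UNE10 (AT4G00050), a basic helix-loop-helix protein, had the same form, with steps of -0.17, -0.16 and -0.89. ULI3 (AT5G59920), a C1-domain protein, instead fell almost evenly, by steps of -0.35, -0.35 and -0.28.

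**Figure D2:**
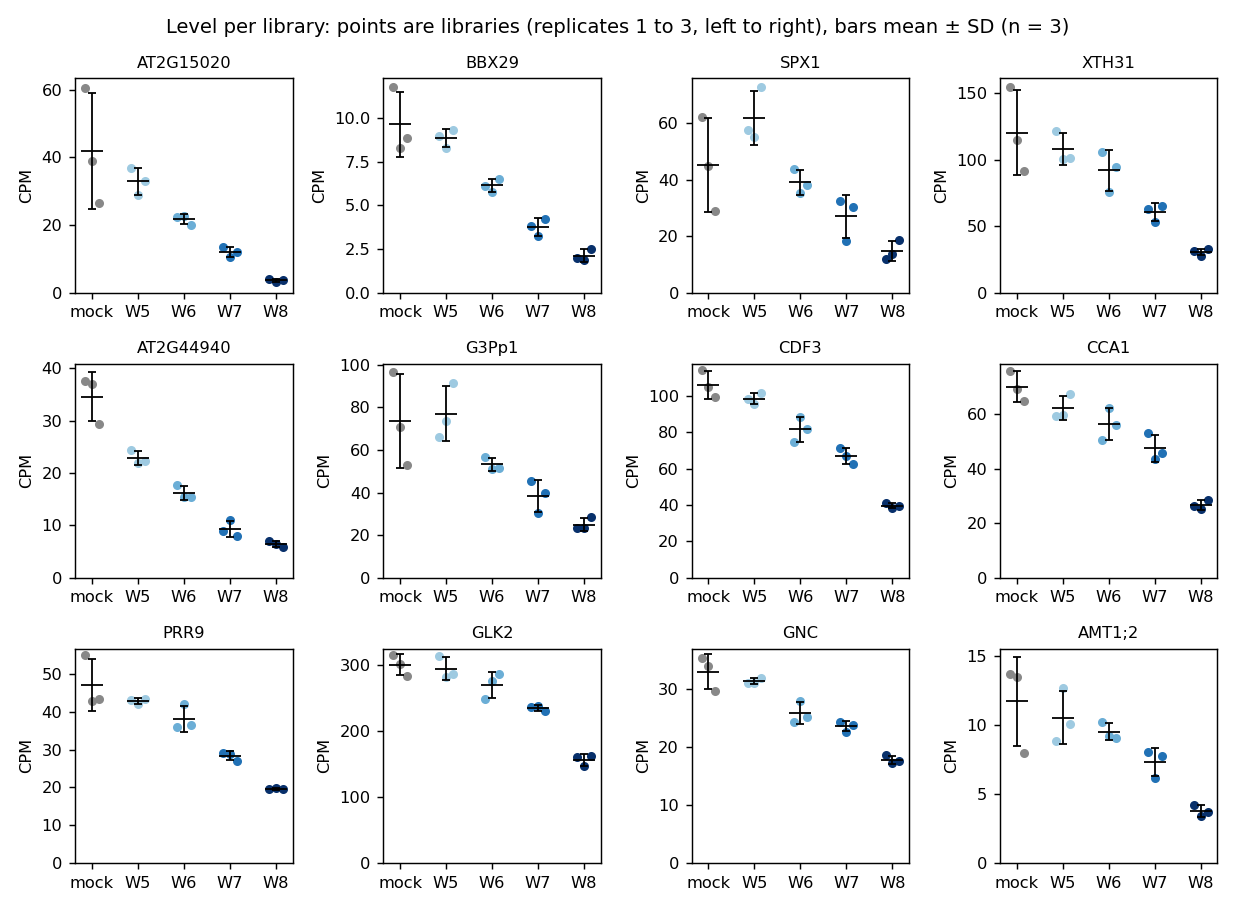
CPM per library for 12 of the 72 genes in mock and at the 4 densities; points are libraries and bars are the mean ± SD of 3 libraries, with each vertical axis starting at 0. W8 lies lowest in each panel, and the mock libraries of AT2G15020, SPX1, G3Pp1 and AMT1;2 spread widely, with replicate 3 lowest.

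Genes of the same families did not all follow. Of 22 clock genes tested against mock at W8, 9 were lower and 8 higher by edgeR's quasi-likelihood test (Benjamini-Hochberg adjusted p under 0.05), where 17% of all 19404 genes tested were lower and 18.5% higher. CCA1 and PRR9 were the genes of that list that met every step and the whole fall. LHY, the partner of CCA1, was too low to enter (4.88 CPM in W5, 3.21 in W8) and did not fall from W6 to W7. AT3G12320 fell by 1.05 on the log2 scale from W5 to W8 but had a first step of 0.04. Other genes of the list went up: TOC1 rose from 24.6 CPM in mock to 50.1 in W8, PCL1 from 13.9 to 29.9 and FKF1, a blue-light receptor that removes CDF proteins, from 7.92 to 27.9, each called higher in W8 against mock. Their log2 ratios of W8 to W5 were 0.85 for TOC1, 1.02 for PCL1 and 1.52 for FKF1.

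Of 23 B-box genes tested, 12 were lower and 5 higher in W8 against mock. BBX18, STH, COL2 and BBX16 met the limit on the whole fall with log2 ratios of W8 to W5 of -1.34, -1.21, -0.92 and -0.83, yet their first steps were -0.09, -0.01, -0.04 and -0.09. BBX30 and BBX31, at 1.53 and 1.63 CPM in W5, met every step, with log2 ratios of W8 to W5 of -3.97 and -2.58, but their level lay under the CPM minimum. COL9, BBX8, BBX14 and BBX17 had log2 ratios of W8 to W5 of 1.75, 1.16, 0.82 and 0.82, and all 4 were called higher against mock. Of 12 genes of light signalling and shade tested, among them phytochromes and their interacting factors, 2 were lower and 5 higher, and 0 met the rule. Of 13 chlorophyll genes tested, 11 were lower and 0 higher (11 and 1 without mock replicate 3). GLK2 was the 1 gene of that list that met the rule. Of 36 photosystem and light-harvesting genes, 35 were called lower and 0 met the rule, and of 15 Rubisco and Calvin cycle genes, 15 were called lower and 0 met it. Their lowest log2 ratios of W8 to W5 were -0.70 and -0.75, and 0 genes of either list met all 3 steps.

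**Figure D3:**
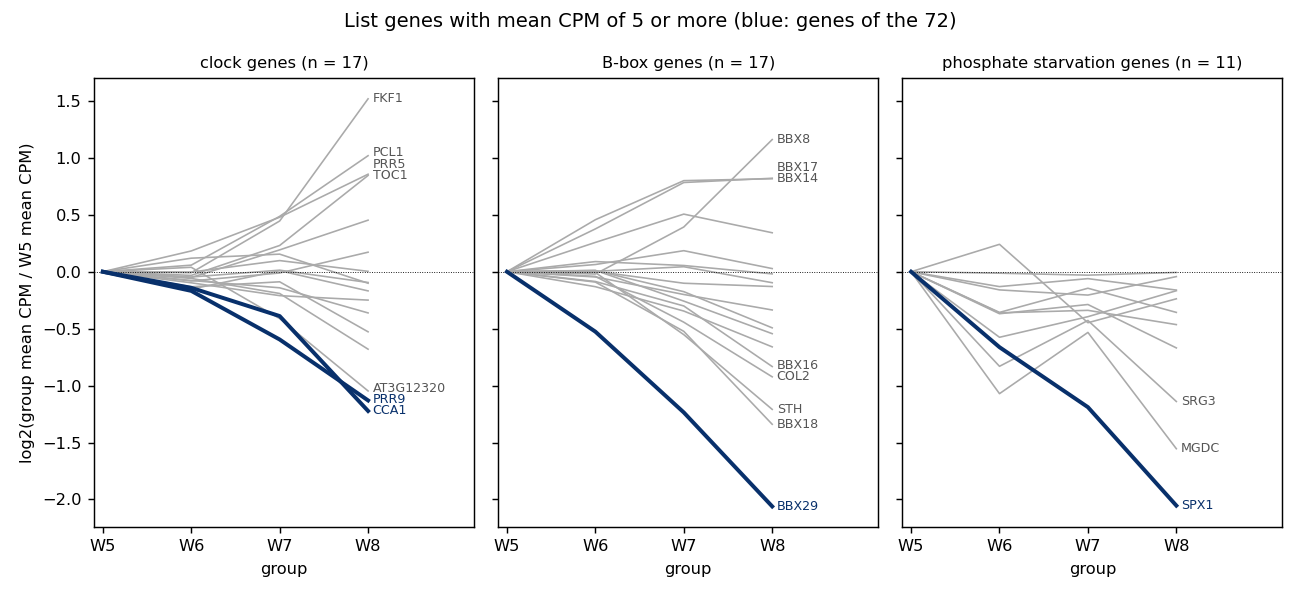
Log2 ratio of the group mean CPM to the W5 mean for genes of 3 lists with a mean CPM of 5 or more; blue lines are genes of the 72 and grey lines the other genes of the list. CCA1, PRR9, BBX29 and SPX1 fall throughout, while TOC1, PCL1 and FKF1 of the clock list end between 0.85 and 1.52, and several phosphate genes turn up again from W6 to W7.

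Promoters of the set were searched for letters that clock and light factors are known to bind. The window ran from 250 bases before to 50 bases after the annotated start of each gene (RefSeq annotation of TAIR10.1, both strands read). The evening element AAAATATCT, to which CCA1 binds, was in 8 of 72 windows (11.1%, exact 95% binomial interval 4.92% to 20.7%, counting error only), against 2.82% of 27443 promoters and 3.19% of those of genes with a mean CPM of 5 or more. In the 250 bases before the start alone it was in 5 (6.94%, against 2.36% of all promoters). Of the 73 genes with the whole fall that missed a step, 4 (5.48%) had it, and of the 438 rising at every step 24 (5.48%). The G-box CACGTG, known as a site of light-regulated factors, was in 10 windows (13.9%, interval 6.87% to 24.1%). That compares with 7.68% of all promoters and 9.14% of those of genes with a mean CPM of 5 or more. Of the 73 genes that missed a step, 8 (11.0%) had a G-box, and of the 438 rising at every step 34 (7.76%). The shorter CCA1-binding site AAAAATCT was in 8 (11.1%, interval 4.92% to 20.7%, against 7.88%). Site II, TGGGCC, was in 5.56% of the set (interval 1.53% to 13.6%) and 15.5% of all promoters. Of the promoters of genes with a mean CPM of 5 or more, 21.2% had it. Among other letters searched, the I-box GATAAG was in 6.94% of the set, against 14.6% of all promoters. The ABRE core ACGTG was in 25% against 26.7%. Of the auxin response letters, TGTCGG was in 9.72% against 5.12%, but TGTCTC in 9.72% against 14.2%. The W-box letters TTGACC were in 6.94% against 14.2%, and TTGACT in 13.9% against 21.8%. A match describes letters only, the intervals give counting error and are no test, and these shares were not tested.

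The 5 promoters given here are shown because they join these letters to genes described here: both clock genes, TZP, and a chaperone and a repeat protein gene that carry the evening element or a G-box with a CCA1-binding site. Each is the stretch of 250 bases before the start, 5′ to 3′ on the strand of the gene, with the evening element, the CCA1-binding site and the G-box in capitals.
CCA1 (chr2:19245341-19245590, plus strand, G-box): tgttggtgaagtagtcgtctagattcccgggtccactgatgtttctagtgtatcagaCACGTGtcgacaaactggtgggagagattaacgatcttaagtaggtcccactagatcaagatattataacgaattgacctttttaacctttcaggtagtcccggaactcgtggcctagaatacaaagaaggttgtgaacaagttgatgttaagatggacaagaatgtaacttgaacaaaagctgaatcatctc
PRR9 (chr2:19232357-19232606, plus strand, G-box at 2 places): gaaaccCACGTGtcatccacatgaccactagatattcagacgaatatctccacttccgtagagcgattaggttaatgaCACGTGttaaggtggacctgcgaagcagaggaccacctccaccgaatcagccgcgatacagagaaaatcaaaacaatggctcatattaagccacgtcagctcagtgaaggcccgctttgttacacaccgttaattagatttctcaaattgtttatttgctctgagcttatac
TZP (chr5:17526410-17526659, plus strand, CCA1-binding site and evening element): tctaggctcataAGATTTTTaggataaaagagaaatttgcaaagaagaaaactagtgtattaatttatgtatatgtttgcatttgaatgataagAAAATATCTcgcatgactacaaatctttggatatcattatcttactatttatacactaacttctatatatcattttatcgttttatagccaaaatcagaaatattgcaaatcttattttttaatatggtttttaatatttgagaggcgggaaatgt
AT3G14200 (chr3:4714699-4714948, minus strand, evening element on the opposite strand): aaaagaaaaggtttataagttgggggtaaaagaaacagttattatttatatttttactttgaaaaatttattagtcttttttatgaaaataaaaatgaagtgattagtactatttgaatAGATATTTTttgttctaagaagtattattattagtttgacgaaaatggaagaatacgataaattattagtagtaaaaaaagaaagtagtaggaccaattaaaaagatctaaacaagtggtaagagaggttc
AT5G20190 (chr5:6813512-6813761, plus strand, G-box and CCA1-binding site): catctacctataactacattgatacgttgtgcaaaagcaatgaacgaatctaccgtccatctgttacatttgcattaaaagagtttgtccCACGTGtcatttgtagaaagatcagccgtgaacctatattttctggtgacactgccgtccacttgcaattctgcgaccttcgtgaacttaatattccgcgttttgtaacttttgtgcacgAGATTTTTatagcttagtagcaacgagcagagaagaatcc
The G-box of CCA1 begins at position -193 counted from the start, and those of PRR9 at -244 and -172. The evening element of PRR9 lay at or after its start, outside the stretch shown. In TZP the CCA1-binding site begins at -238 and the evening element at -156, and in AT3G14200 the evening element begins at -131. The CCA1-binding sites of TZP and AT5G20190 lie on the opposite strand and so read AGATTTTT in the stretches shown.

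AT3G14200, which encodes a DnaJ-domain chaperone, had 29.3, 31.1 and 27.8 CPM in mock, 25.4, 27.9 and 27.9 in W5, 25.7, 24.1 and 19.9 in W6, 14.8, 16.7 and 17.2 in W7, and 10.0, 11.3 and 8.93 in W8. W5 and W6 overlapped, and W7 and W8 each lay below all groups before them. AT5G20190, which encodes a tetratricopeptide repeat protein, was 1 of 8 genes with every W5 library below every mock library. It had 191, 207 and 192 CPM in mock and 155, 159 and 159 in W5, then 127 ± 13.6 in W6, 103 ± 3.00 in W7 and 90.6 ± 3.26 in W8. Its fall flattened with density, by steps of -0.31, -0.30 and -0.18.

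Among other transcription factor genes, AT2G44940 stood out for falling from mock to W5 as well. The gene encodes an AP2/ERF DNA-binding protein of the clade of TINY, a regulator of stress and growth. It had 37.6, 37.0 and 29.3 CPM in mock, 24.3, 21.9 and 22.3 in W5, 17.7, 15.5 and 15.4 in W6, 8.89, 11.0 and 7.92 in W7, and 7.09, 6.44 and 5.90 in W8. No 2 groups overlapped. TINY2, of the same clade, also fell at each of the first steps (-0.72 and -0.67) but then by 0.08, from a level of 3.73 CPM in W5. Of 11 clade genes tested, 6 were lower and 0 higher in W8 against mock (5 and 0 without mock replicate 3). KAN2 (AT1G32240), which sets the lower side of leaves, went from 7.60 ± 0.951 CPM in W5 to 3.72 ± 0.307 in W8, and its mock level, 5.99 ± 1.29, lay nearer W6. MYB4 (AT4G38620), a repressor of phenylpropanoid synthesis, fell from 10.4 ± 0.760 to 5.89 ± 0.876 with its largest step, -0.46, between W6 and W7.

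Of the 4 transport and nutrient genes, 3 were among the 10 with the lowest ratio of W8 to W5. SPX1 (AT5G20150), the phosphate sensor, had 62.2, 44.7 and 28.7 CPM in mock, 57.4, 54.9 and 72.7 in W5, 43.7, 35.3 and 37.9 in W6, 32.4, 18.3 and 30.4 in W7, and 12, 13.8 and 18.8 in W8. The mock libraries spread over the ranges of W5, W6 and W7, and mock replicate 3 lay within that of W7. Its fall against mock at W8 was -1.68 ± 0.33 (log2 ± SE), and -1.94 without mock replicate 3. G3Pp1 (AT3G47420), a phosphate starvation-induced transporter of the glycerol-3-phosphate family, had 96.9, 71.0 and 52.8 CPM in mock, and went from 77.2 ± 13.0 in W5 through 53.3 ± 3.20 and 38.5 ± 7.55 to 25.0 ± 2.89 in W8. AMT1;2 (AT1G64780), an ammonium uptake transporter, held 13.6, 13.4 and 7.95 CPM in mock and fell from 10.5 ± 1.95 in W5 to 3.74 ± 0.429 in W8, mostly in the last step (-0.96). AT2G36630, annotated as a sulfite exporter family protein, fell from 55.3 ± 3.72 to 26.7 ± 1.82, and its mock libraries were close together at 52.5, 56.5 and 55.0.

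Other phosphate starvation genes fell less regularly. Of 15 tested, 6 were lower (9 without mock replicate 3) and 0 higher in W8 against mock, and SPX1 was the single gene of that list in the set. MGDC, a galactolipid synthase active when phospholipids are replaced, had steps of -1.07, 0.54 and -1.02 on the log2 scale. SRG3 moved by -0.83, 0.40 and -0.71 and the phosphatase PS2 by -2.33, 1.00 and -0.75 at the same steps. PHR1, the regulator that SPX proteins bind, had 56.2 CPM in mock and 59.2 in W8.

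Cell wall genes were led by XTH31 (AT3G44990), an enzyme that cuts and rejoins xyloglucan during cell expansion. It had 155, 115 and 91.7 CPM in mock, 122, 101 and 101 in W5, 106, 75.6 and 94.4 in W6, 63.2, 53.0 and 65.5 in W7, and 31.2, 27.9 and 32.5 in W8. Mock, W5 and W6 overlapped, and W7 and W8 were each set apart below. Of 20 genes of its family tested, 5 were lower and 5 higher in W8 against mock (4 and 7 without mock replicate 3). GH9C2 (AT1G64390), an endoglucanase, fell from 121 ± 4.22 CPM in W5 to 56.6 ± 3.27 in W8. AT3G09540, annotated as a pectin lyase, fell from 14.2 ± 0.279 to 8.11 ± 1.21. None of 13 expansin genes tested met the rule, though 7 were lower and 0 higher in W8 against mock.

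The auxin and growth group had 7 genes, with log2 ratios of W8 to W5 between -1.12 and -0.82. SAUR20 (AT5G18020) and AT2G21210, both small auxin-induced genes, fell from 9.65 ± 0.255 to 4.64 ± 1.66 CPM and from 42.7 ± 3.54 to 20.6 ± 2.87. Both are uncertain, since SAUR20 belongs to a cluster of near-identical copies and AT2G21210 shares exon bases with a neighbour. ARGOS (AT3G59900), which enlarges organs, fell from 15.1 ± 3.78 to 7.26 ± 1.01. WAG1 (AT1G53700), a kinase that acts on auxin efflux carriers, had 13.2 ± 0.670 CPM in mock, 10.8 ± 1.69 in W5 and 4.96 ± 0.341 in W8. DFL2 (AT4G03400), of the GH3 family, fell from 114 ± 4.93 to 64.9 ± 5.72, chiefly by 0.56 on the log2 scale between W6 and W7, and shares exon bases with another gene. AT4G12980, annotated as auxin-responsive, fell from 75.5 ± 3.45 to 42.2 ± 1.47, and CYP78A6 (AT2G46660), a cytochrome P450 that promotes organ and seed size, from 6.17 ± 0.556 to 3.16 ± 0.539. Of 24 auxin response and transport genes tested, 9 were lower and 4 higher in W8 against mock (10 and 3 without mock replicate 3). None of 17 cytokinin response genes met the rule, though 7 were lower and 0 higher (5 and 1 without mock replicate 3).

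Among receptor proteins, the kinase gene RLK (AT5G67280) fell from 73.7 ± 1.19 CPM in W5 to 34.1 ± 4.16 in W8. BAM2 (AT3G49670), a receptor kinase related to CLAVATA1, went down in nearly even steps of -0.22, -0.29 and -0.31, from 72.1 ± 2.88 to 40.9 ± 4.1, and is uncertain because it shares exon bases. AT4G16880, a leucine-rich repeat gene, fell from 50.6 ± 2.85 to 28.4 ± 0.522.

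Chloroplast and primary metabolism contributed 8 genes. FADA (AT4G27030), a plastid desaturase of phosphatidylglycerol, fell from 23.6 ± 4.43 CPM in W5 to 10.2 ± 1.04 in W8. NdhU (AT5G21430), a subunit of the chloroplast NADH dehydrogenase-like complex, fell from 61.1 ± 4.06 to 34.7 ± 4.44, and CGLD27 (AT5G67370), a conserved gene of green plants, from 63.9 ± 8.42 to 30.6 ± 1.43. RPI2 (AT2G01290) and PGL5 (AT5G24420), which act in sugar phosphate metabolism, had whole falls of -0.82 and -0.98. RPI2 dropped mostly from W6 to W7, with steps of -0.15, -0.55 and -0.11, and RPI2 and FADA share exon bases with other genes. AT5G15950, an S-adenosylmethionine decarboxylase of polyamine synthesis, had 49.3, 44.9 and 42.8 CPM in mock, 33.2, 33.4 and 40.7 in W5, 30.2, 30.1 and 28.5 in W6, 21.9, 18.7 and 23.0 in W7, and 15.8, 15.1 and 14.1 in W8, with no overlap between any groups. AT2G40400 (synonym BPG3) fell from 100 ± 4.66 to 54.6 ± 4.65, and the aminotransferase-like gene AT1G50110 from 6.72 ± 1.11 to 3.47 ± 0.508.

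A further 7 genes encode cytochromes P450, reductases and transferases. CYP706A6 (AT4G12320) had 196, 179 and 162 CPM in mock and 174, 164 and 171 in W5, then 151 ± 11.0 in W6, 107 ± 2.69 in W7 and 78.2 ± 9.52 in W8. CYP71A25 (AT3G48280) and AT1G66540, of the same superfamily, had whole falls of -0.88 and -1.11. ERD9 (AT1G10370), a glutathione S-transferase, fell from 20.8 ± 1.49 in W5 to 7.52 ± 0.651 in W8, and SDR1 (AT3G61220), a short-chain reductase, from 52.0 ± 4.28 to 26.7 ± 1.64, both uncertain because of shared exon bases. AT2G29170, also a reductase-like gene, and the methyltransferase gene AT1G69523 had whole falls of -0.96 and -1.0.

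Hydrolases and proteases numbered 4: the lipase gene AT3G48460 (-0.88), the alpha/beta hydrolase gene AT4G12830 (-0.94, shared exon bases), the patatin-like PLP9 (AT3G63200, -0.84) and the aspartic protease gene PCS1 (AT5G02190, -1.18), each value being the log2 ratio of W8 to W5. PCS1 fell mainly from W6 to W7, by 0.73 on the log2 scale. The RING finger genes AT3G06145 and AT5G17600 had ratios of -1.20 and -0.98, and AT4G21870, a small heat shock type chaperone, of -0.97. AT4G21870 and AT4G21890, a MYND zinc finger gene of the set (-0.82), have 1 gene between them, and SPX1 and AT5G20190 have 4 genes between them.

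The remaining annotated genes had ratios between -1.49 and -0.80. The steepest was AT3G04140, an ankyrin repeat gene, with 28.8 ± 1.96 CPM in W5, 21.9 ± 0.523 in W6, 14.9 ± 1.76 in W7 and 10.3 ± 1.70 in W8, followed by the C1-domain gene AT2G19650 at -1.31. DML3 (AT4G34060), a DNA demethylase, and AT4G33560, annotated as wound-responsive, fell in the most even steps of the set together with ULI3, BAM2 and AT5G20190. The steps of DML3 were -0.25, -0.31 and -0.32 and those of AT4G33560 -0.28, -0.31 and -0.34. DTA2 (AT2G45830) was the least secure member: its W6 libraries ran from 3.51 to 6.72 CPM, and it met the rule in 6 of the 15 settings that each left out 1 library. AT1G26208, a noncoding RNA that shares exon bases with another gene, had a ratio of -0.93, the ankyrin gene AT1G62050 of -0.81 and the CASP-like gene AT1G79770 of -0.83.

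The steepest fall of all was in a gene annotated as uncharacterized. AT2G15020, a gene with 1 exon on chromosome 2 (TAIR10.1, chr2:6491425-6493512, minus strand), had 60.5, 38.9 and 26.4 CPM in mock, 36.9, 28.9 and 33.0 in W5, 22.3, 22.7 and 20.1 in W6, 13.6, 10.4 and 12 in W7, and 4.02, 3.12 and 3.82 in W8. The 4 inoculated groups did not overlap, the fall grew at each step (-0.60, -0.85 and -1.72), and the mock libraries reached past W5 on both sides. Its fall against mock was -3.59 ± 0.31 (log2 ± SE) at W8, and -3.85 without mock replicate 3. AT5G55620 had 88.2, 76.7 and 78.8 CPM in mock, 75.9, 72.9 and 65.4 in W5, 48.0, 54.0 and 54.8 in W6, 43.6, 45.1 and 40.6 in W7, and 22.8, 22.9 and 19.99 in W8, with all groups apart. AT1G76240 of the DUF241 family fell from 12.2 ± 1.80 in W5 to 4.24 ± 0.319 in W8, and its mock libraries, 15.9, 14.6 and 14.2, lay above all of W5. The 6 others annotated as uncharacterized or by a domain of unknown function in this group were AT5G01790, AT3G44450, AT3G52740, AT1G11700, AT4G26950 and AT5G46220. Their ratios of W8 to W5 ran from -1.34 to -0.89. The label is that of the annotation, and published functions of these genes were not looked up. Some of them may therefore belong in other role groups, such as light signalling. AT1G11700 and AT4G26950 share an annotation as senescence regulators of the DUF584 family.

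**Figure D4:**
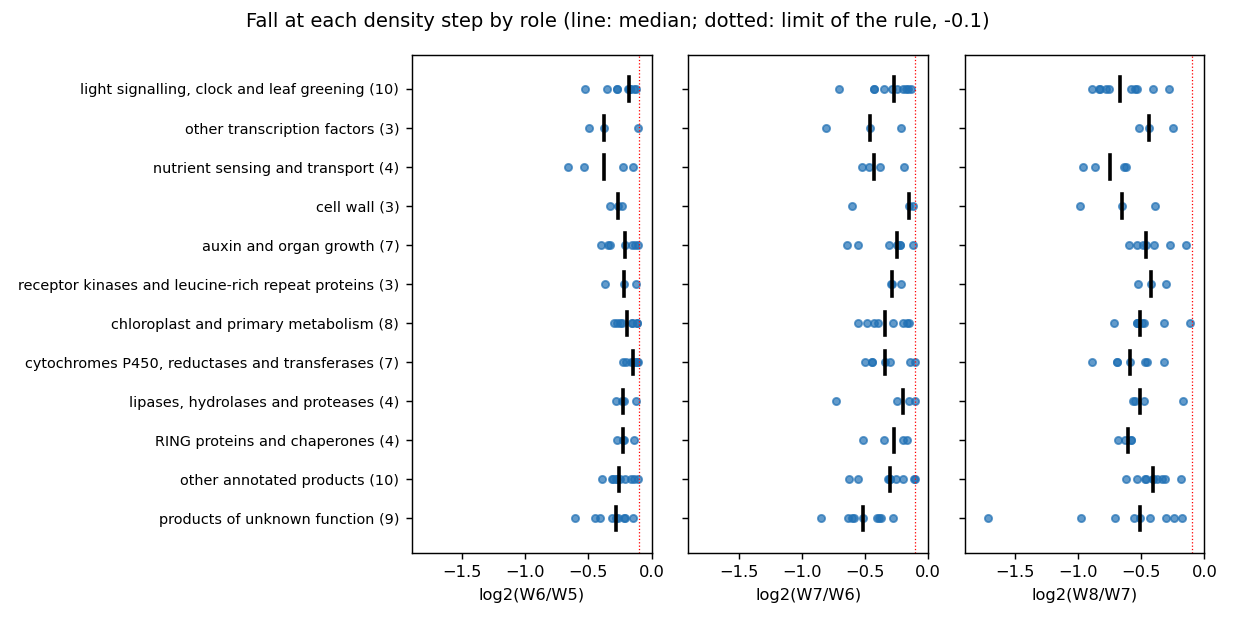
Log2 ratio of group mean CPM at each density step for the 72 genes arranged by role, with the number of genes of a role in brackets; each point is a gene, the bar is the median and the dotted line is the limit of -0.1. The last step reaches furthest to the left in most roles, with AT2G15020 at -1.72.

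The mock libraries entered the choice only through the mean CPM. The W5 libraries had to be high and the W8 libraries low for a gene to be chosen, so the position of mock relative to them is partly set by the choice and is given as a description. The median log2 ratio of mock to W5 over the 72 genes was 0.07, against -0.03 over all genes with a mean CPM of 5 or more. Mock lay above W5 in 45 genes (62.5%, against 39.7% of all), and the ratio was within 0.2 of 0 in 56 (77.8%, against 89.5%). It was highest in AT2G44940 (0.60), AT3G44450 (0.46), CYP78A6 (0.41), AT1G11700 (0.41) and AT5G15950 (0.35). It was lowest in SPX1 (-0.45), KAN2 (-0.34), AT1G50110 (-0.30), AT4G21890 (-0.29) and PGL5 (-0.23). Without mock replicate 3 the median ratio was 0.14, mock lay above W5 in 52 genes (72.2%, against 33.1% of all), and the ratio was within 0.2 of 0 in 45 (62.5%, against 82.5%). Every W5 library lay below every mock library in 8 of the 72 genes (3.72% of all), every W6 library in 33 (4.3%), every W7 library in 60 (14.9%) and every W8 library in 72 (20.3%). Against mock replicates 1 and 2 alone these counts were 32 (10.1% of all), 54 (9.97%), 66 (21.0%) and 72 (24.0%).

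In edgeR's test against mock, 1 of the 72 genes was called lower at W5 (0.0155% of all genes tested), 13 at W6 (0.34%), 57 at W7 (6.77%) and 72 at W8 (17%). None was called higher at any density, where 0.165%, 0.943%, 6.29% and 18.5% of all genes were at W5, W6, W7 and W8. The 4 comparisons share the mock libraries, and the inoculated libraries had been chosen to fall, so these counts are not independent of the choice. The median log2 fold change over the 72 was -0.11, -0.31, -0.62 and -1.13 at W5, W6, W7 and W8, beside medians of all genes of -0.0085, -0.012, -0.0072 and -0.0029. Without mock replicate 3 the counts were 2, 30, 62 and 72, and the shares of all genes called lower moved as well, to 0.0562%, 0.899%, 9.78% and 17.8%. The call of AT2G44940 at W5 (-0.63 ± 0.12, adjusted p = 0.0324) was lost, and 0 of the 72 genes were called, without mock replicate 1, mock replicate 2, any 1 of the W5 libraries, W6 replicate 3 or W7 replicate 1. In those fits 0% to 0.0102% of all genes tested were called lower at W5. At W6 the count was 7 without mock replicate 1 (0.173% of all genes) and 7 without W6 replicate 3 (0.117%). At W6 the called genes were BBX29, AT2G44940, AT5G55620, AT1G76240, CDF3, AT3G44450, AT5G15950, WAG1, ULI3, CYP78A6, BAM2, GNC and AT5G20190. At W7 every gene was called in 4 of the 12 role groups: light, clock and greening (10), products annotated as uncharacterized (9), RING proteins and chaperones (4) and receptor proteins (3). Of all 72 genes, 57 were called at W7 (6.77% of all genes tested), and 44 without mock replicate 2 (2.25%). The roles were assigned after the values were seen, so nothing is read from the full groups.

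Mock replicate 3 lay on the low side for these genes. It was below both other mock libraries in 51 of the 72 (70.8%, against 25.2% of all genes with a mean CPM of 5 or more) and above both in 9 (12.5%, against 53.5%). Its median log2 ratio to the mean of the other mock libraries was -0.21, against 0.07 over all genes. The lowest ratios were those of AT2G15020 (-0.91), SPX1 (-0.90), SAUR20 (-0.90), AMT1;2 (-0.77) and G3Pp1 (-0.67), and the highest those of ARGOS (0.46), DTA2 (0.44) and AT4G21890 (0.38). It was below the lowest W5 library in 35 of the 72 genes, against 3556 of the 14388 genes with a mean CPM of 5 or more. It was within the range of the W7 libraries in 7 of the 72, a smaller share than the 5717 of those 14388 genes. The 73 genes with the whole fall that missed a step had nearly the same median, -0.21, with 47 (64.4%) below both, so this was not a feature of the steady decline alone. Among the 438 genes that rose at every step, mock replicate 3 was below both in 9 (2.05%) and the median was 0.65. By role, the genes below both were 8 of 8 in chloroplast and primary metabolism, 4 of 4 among RING proteins and chaperones and 3 of 3 among receptor proteins. They were 8 of 9 products annotated as uncharacterized, 6 of 7 cytochromes P450, reductases and transferases, 3 of 4 hydrolases and 3 of 4 transport and nutrient genes. They were 6 of 10 in light, clock and greening, 4 of 7 in auxin and growth and 4 of 10 other annotated genes. Among other transcription factors they were 1 of 3, and among cell wall genes 1 of 3.

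**Figure D5:**
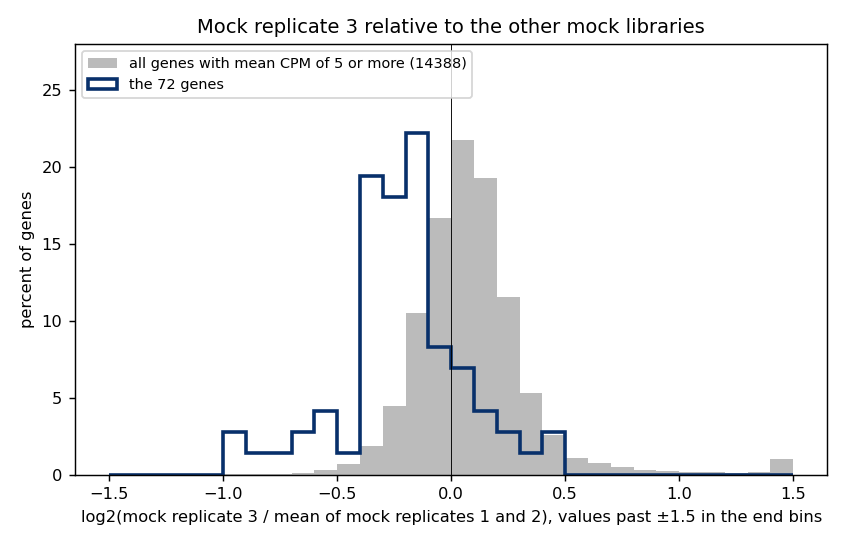
Distribution of the log2 ratio of mock replicate 3 to the mean of mock replicates 1 and 2, in percent of genes per bin of width 0.1, for the 72 genes (outline) and for all 14388 genes with a mean CPM of 5 or more (grey). The outline sits to the left of the grey, with medians of -0.21 and 0.07.

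The genes shared features of structure that the rule did not use. Of the 72, 23 (31.9%) had a single exon, against 9.25% of the genes with a mean CPM of 5 or more, and the median number of exons was 2 against 6. Of the 73 genes that missed a step, 10 (13.7%) had a single exon, and of the 438 rising at every step 90 (20.5%). Exon length differed less, with medians of 1740.5 and 1885 bases. The median GC content of the 250 bases before the start was 28% against 31.2%. Products annotated as uncharacterized or by a domain of unknown function made up 16.7% of the set and 7.90% of all. The genes lay on all 5 chromosomes, with 19 (26.4%) on chromosome 5, near the 23.4% of genes with a mean CPM of 5 or more. These shares were not tested.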

How the data were processed

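Poly-A RNA was sequenced in 15 libraries, 3 per group. The authors deposited raw counts of reads per gene in 1 table, with 0 columns left unmapped. The submitters' processing notes name the trimmer cutadapt 1.9.1, the read counter featureCounts 1.22.2 and the TAIR10 genome. Which aligner, annotation release and strandedness were used is not given in the sources used here. Where genes overlap on opposite strands, their reads cannot be told apart, and a gene is called uncertain when less than 95% of its exon bases are free of other genes.

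CPM were computed from library totals (17811560 to 21870246 counts), and the choice of genes follows the thresholds in the report. The deposited counts were tested in R 4.3.3 with edgeR 4.0.16: filterByExpr by group (minimum count 10, minimum total 15; 19404 genes kept), TMM scaling (factors 0.958 to 1.03), and glmQLFit (robust=TRUE) with glmQLFTest over all 15 libraries with 1 mean per group. Benjamini-Hochberg adjustment ran over all genes tested, with calls under 0.05. The SE of a log2 fold change is its size over the root of F. The scripts were tested on simulated data. Tables were made in Python 3.11.15 with pandas 2.3.3 and numpy 2.4.6.

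Alternatives were DESeq2 1.42.0, its size factors in edgeR, no filter, robust=FALSE, a fit of 2 groups, a replicate block, each library left out, and other limits of the rule. Of the table's 32833 identifiers, 32548 matched RefSeq TAIR10.1, which gave symbols, coordinates, exons and promoter sequences. The members, the 25 lists of textbook roles and the tests were chosen with earlier results of these data known. The genes named are all 72 members, by role, together with 3 genes just outside the limit and other genes of the clock, B-box, TINY and phosphate lists. Those rules also single out the 10 lowest ratios of W8 to W5, the 5 most even falls and the extremes of mock relative to W5 and within mock.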

Additional observations from a re-analysis of the deposited data

How the results depend on the processing

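The number of genes that met the rule was 110 with a mean CPM of 1 or more, 110 with each step at most 0 and 39 with a log2 ratio of W8 to W5 of -1 or less. Leaving out 1 library gave 63 to 85 genes, the lowest without W6 replicate 2 and the highest without W5 replicate 2, and 29 of the 72 met the rule in every one of the 15 settings. With TMM-scaled CPM 75 genes met it, 69 of them among the 72, and with group medians 67, 51 of them among the 72.

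The number called lower against mock at W5, 1 gene, was 2 with DESeq2, 2 with no filter, 0 with robust=FALSE, 0 in a fit of only these groups, 0 to 2 with 1 library left out, and 3 without mock replicate 3 and W8 replicate 2. At W6 the 13 genes called (0.34% of all genes tested) were 6 in a fit of only these groups (0.144%). They were 7 to 30 with 1 library left out (0.117% to 0.899%), and 34 without mock replicate 3 and W8 replicate 2 (1.1%). The share of all genes called thus moved with the setting as well. The cause was not tested. The counts of the 72 genes at W7 and W8 stayed within 1.5 times under all alternatives run. The share of all genes called lower moved more at W7, from 2.25% to 10.9%, and ran from 12.3% to 17.8% at W8. The W7 and W8 libraries entered the choice of the 72 genes, so the steadier counts are partly set by it. At W8 every gene was called in every setting but 1: without both mock replicate 3 and W8 replicate 2, DTA2 had an adjusted p of 0.0744. With 250 bases upstream only, the share of the genes with an evening element was 6.94% in place of 11.1%, and the shares of all motifs searched stayed within their intervals.

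Same-numbered libraries of different groups did not pair: their deviations from the group means correlated by -0.305 to 0.32 (median 0.0449, 30 pairs). With replicate number as a block, 1, 13, 58 and 72 of the genes were called lower at W5, W6, W7 and W8. The shares of all genes tested were 0.0155%, 0.309%, 7.16% and 16.9%. The design has 3 libraries a group, and genes near the minimum of 5 CPM, such as DTA2, rest on few counts.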
